A study of Homo sapiens with 2 samples.

Results

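The genes described here are 56 subunits of the SWI/SNF chromatin remodelling complexes and of the Polycomb repressive complexes PRC1 and PRC2. They were taken from a fixed list of symbols, and all 56 matched 1 Ensembl gene each among the 60683 genes of the count table: 26 SWI/SNF, 11 PRC2 and 19 PRC1 genes. RNA was sequenced from HEK293T, a line of human embryonic kidney origin that carries SV40 large T antigen, in which FKBP5 had been stably knocked down with short hairpin RNAs. FKBP5 encodes an HSP90 co-chaperone that binds steroid receptors. The libraries form 1 group of 2 FKBP5 knockdown samples, called sample 1 and sample 2 after their titles. The RNA protocol also mentions scrambled-control cells. Those were not analysed here, and the values below are levels in knockdown cells and not effects of the knockdown. The labels give neither the hairpin sequences nor whether the samples came from separate cultures or clones, and the SDs cover only the spread between these libraries, part or all of which may be technical.

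SWI/SNF complexes use ATP to slide or eject nucleosomes and are assembled from families of related subunits, of which each complex takes a small set. The canonical BAF form carries an ARID1 subunit and a DPF subunit, the PBAF form carries ARID2, PBRM1, BRD7 and PHF10, and the non-canonical form carries BRD9. Polycomb complexes act on the opposite side. PRC2 methylates histone H3 (H3K27me3) through EZH1 or EZH2, and PRC1 ubiquitinates histone H2A through RING1 or RNF2. The PCGF, CBX, PHC, RYBP and YAF2 subunits set which form of PRC1 is built. Because paralogs can replace each other, the question asked of these levels was which paralog led at each place in the complexes.

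Sample 1 held 9997706 counts and sample 2 held 21284648, so levels are known more precisely in sample 2. FKBP5 had 41 counts in sample 1 (3.95 CPM) and 77 in sample 2 (3.52 CPM). CPM are the deposited counts scaled to library size but not to gene length. All 7 markers fixed for the HEK293T line were found, with a summed level of 626 CPM in sample 1 and 606 CPM in sample 2. Of 8 markers of mature neurons, 7 had a mean of at least 1 CPM, summing to 54.1 and 63.4 CPM. The 6 blood markers summed to 5.59 and 9.43 CPM and the 6 fibroblast markers to 62.8 and 72.6 CPM, of which COL1A1 alone had 54.0 and 65.4 CPM.

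Nearly all subunit genes were expressed. A mean of at least 1 CPM was reached by 55 of the 56 (98.2%), against 66.5% of the 19910 protein-coding genes of GENCODE 29 in the table and 37.6% of the 41325 genes with any count. ACTL6B, an actin-like subunit of neuronal BAF, was the exception, with 0.964 CPM in the first library and 0.869 in the second. Means of 100 CPM or more were found for 19 members, 33 lay between 10 and 100 CPM, and 4 were under 10 CPM. In CPM, which long genes raise, the highest were the ATPase gene SMARCA4 (704 ± 20.5 CPM, SD, n = 2) and the Polycomb reader gene CBX6 (334 ± 24.0 CPM).

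Levels of different genes are compared here per length. The main scale is TPM, a transcript abundance scaled to library size and length, with the union of a gene's annotated exons as its length. A gene's true length depends on the isoforms made, which gene counts do not show. Ratios between genes were therefore also computed with the longest protein-coding transcript, the mean of the protein-coding transcripts and the longest coding sequence. A gene was called the lead of its position only where it was higher in both samples under all 4 lengths and in unscaled counts, with every 95% exact binomial interval of the ratio above 1. These intervals cover counting error only. Alternative subunits exist at 17 positions, and a lead was called at 10 of them: 5 of 9 in SWI/SNF, 3 of 3 in PRC2 and 2 of 5 in PRC1. On the main scale SMARCD2 was the highest (168 ± 9.11 TPM), next to SMARCA4 (161.5 ± 1.58 TPM) and CBX6 (150.4 ± 13.7 TPM). The median member was at 38.7 TPM, and 50 of 56 were above the median protein-coding gene (7.01 TPM).

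**Figure D1:**
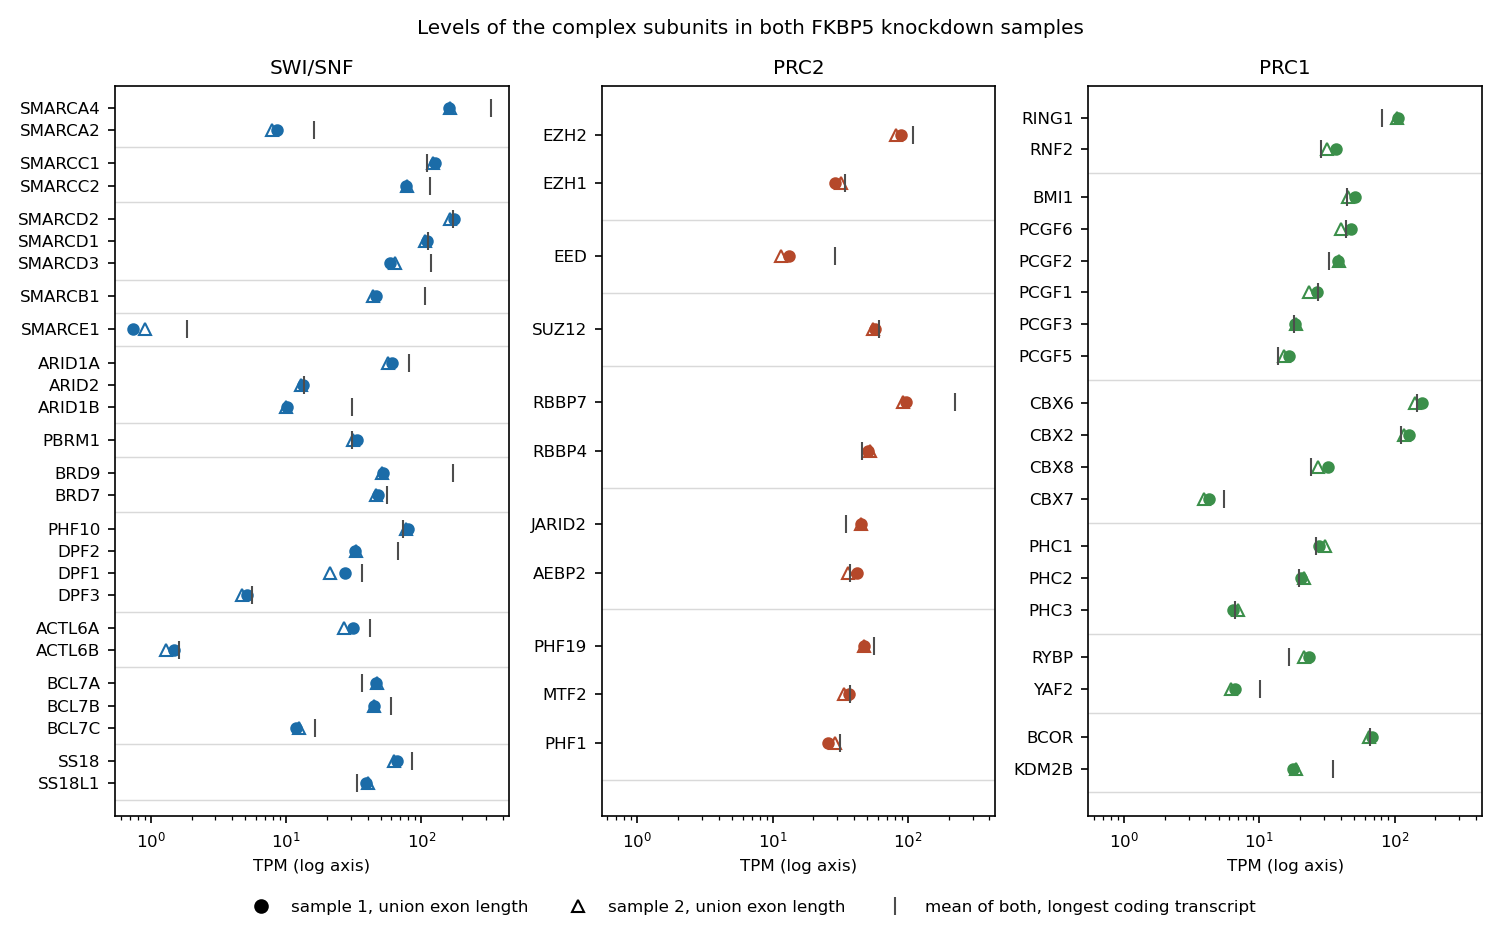
TPM (log axis) of the 56 subunit genes, grouped by position and complex, in sample 1 (filled circles) and sample 2 (open triangles) with union exon length; vertical ticks give the mean of both samples with the longest coding transcript as length. The samples lie close together for every gene, SMARCE1 and ACTL6B are the lowest, and the tick lies far from the circles for genes such as SMARCA4, BRD9 and RBBP7, whose exon union is much longer than the transcript.

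Among the ATPases, the motors of the SWI/SNF complex, SMARCA4 (BRG1) led its paralog SMARCA2 (BRM). SMARCA4 had 160.3 TPM in sample 1 and 163 TPM in sample 2. SMARCA2 had 8.63 and 7.88 TPM. SMARCA4 therefore made up 94.9% and 95.4% of the ATPase transcripts on the main scale. The ratio of SMARCA4 to SMARCA2 was 18.6 in sample 1 (95% interval 16.9 to 20.5) and 20.6 in sample 2 (19.3 to 22.1), and over the 4 lengths it ran from 6.86 to 21.3.

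The lead at the actin-like position was the largest of the 17 in the lowest ratio over the lengths. Its mean ratio on the main scale was also the highest (20.9, against 19.6 for the ATPases). In sample 2 alone the ATPase ratio was slightly higher, and the intervals at these positions overlapped in both samples. ACTL6A (BAF53A), the form of dividing cells, had 31.3 TPM in sample 1 and 26.7 TPM in sample 2. ACTL6B (BAF53B), its neuronal counterpart, had 10 and 19 counts, or 1.48 and 1.30 TPM. The ratio was 21.2 in sample 1 (11.4 to 44.6) and 20.5 in sample 2 (13.0 to 34.3), with 20.5 to 32.4 over the lengths. Other subunits known from neuronal BAF were at higher levels. DPF1 (BAF45B) had 27.5 and 21.0 TPM, and SS18L1 (CREST) 39.0 and 40.5 TPM. DPF3 (BAF45C) had 5.13 and 4.72 TPM. SS18L1 was nonetheless below SS18, which had 65.7 and 62.7 TPM and led with a ratio of 1.62 ± 0.0958 (1.55 to 2.80 over the lengths).

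Among the ARID genes, which give the complex its form, ARID1A led. It had 60.4 TPM in sample 1 and 56.8 TPM in sample 2, or 72.1% and 71.3% of the ARID transcripts on the main scale. Its ratio to the BAF paralog ARID1B ran from 1.84 to 5.997 over the lengths, and that to the PBAF subunit ARID2 from 4.39 to 6.30. The order of ARID2 and ARID1B was not settled: ARID2 was 1.31 ± 0.0147 times ARID1B on the main scale and as low as 0.303 times on another. The exon union of ARID1B spans 44677 bases against 12127 for ARID2, although their longest coding sequences have 6996 and 5505 bases.

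The SMARCD genes, which encode BAF60 subunits of the core, were all well expressed and led by SMARCD2. SMARCD2 had 175 TPM in sample 1 and 162 TPM in sample 2, and SMARCD1 had 110.1 and 106 TPM. SMARCD3, known from muscle and heart, had 59.0 and 63.5 TPM. SMARCD2 exceeded SMARCD1 by 1.56 ± 0.0398 times on the main scale and by 1.078 times at the least, and SMARCD1 and SMARCD3 were not ordered (0.907 to 1.87). The scaffold genes SMARCC1 (BAF155) and SMARCC2 (BAF170) were not ordered either. SMARCC1 had 125 and 121 TPM and SMARCC2 76.9 and 78.0 TPM, but with the transcript lengths the ratio of SMARCC1 to SMARCC2 fell below 1, to 0.885 at the lowest.

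The genes that mark BAF, PBAF and non-canonical BAF were expressed side by side. PHF10, the PHD finger subunit of PBAF, had 79.2 and 77.0 TPM, and DPF2, the ubiquitous DPF subunit of BAF, 32.5 and 33.1 TPM. PHF10 was the higher of them in all 8 comparisons of sample and length, but by as little as 1.06 times, so no lead was called. DPF2 was above DPF1 (1.18 to 2.59), and DPF1 above DPF3 (3.09 to 7.16). The bromodomain genes BRD9 and BRD7 were nearly level on the main scale, with 51.6 and 51.5 TPM for BRD9 and 47.9 and 46.5 TPM for BRD7. BRD9 was higher in all 8 comparisons, from 1.077 to 3.11 times, and 1 interval reached 1, so the call was not made. PBRM1, the polybromo subunit of PBAF, had 33.4 and 31.4 TPM.

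BCL7 subunits bind the ATPase module. BCL7A had 46.5 and 46.95 TPM and BCL7B 44.5 and 44.7 TPM, and their order turned with the length used (0.613 to 1.80). BCL7C was below BCL7B under every length (BCL7B 3.55 to 4.19 times higher), with 11.7 and 12.4 TPM. SMARCB1 (SNF5), a core subunit with no paralog, had 46.4 and 44.1 TPM, and 106.5 TPM on average with its longest coding transcript as length.

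**Figure D2:**
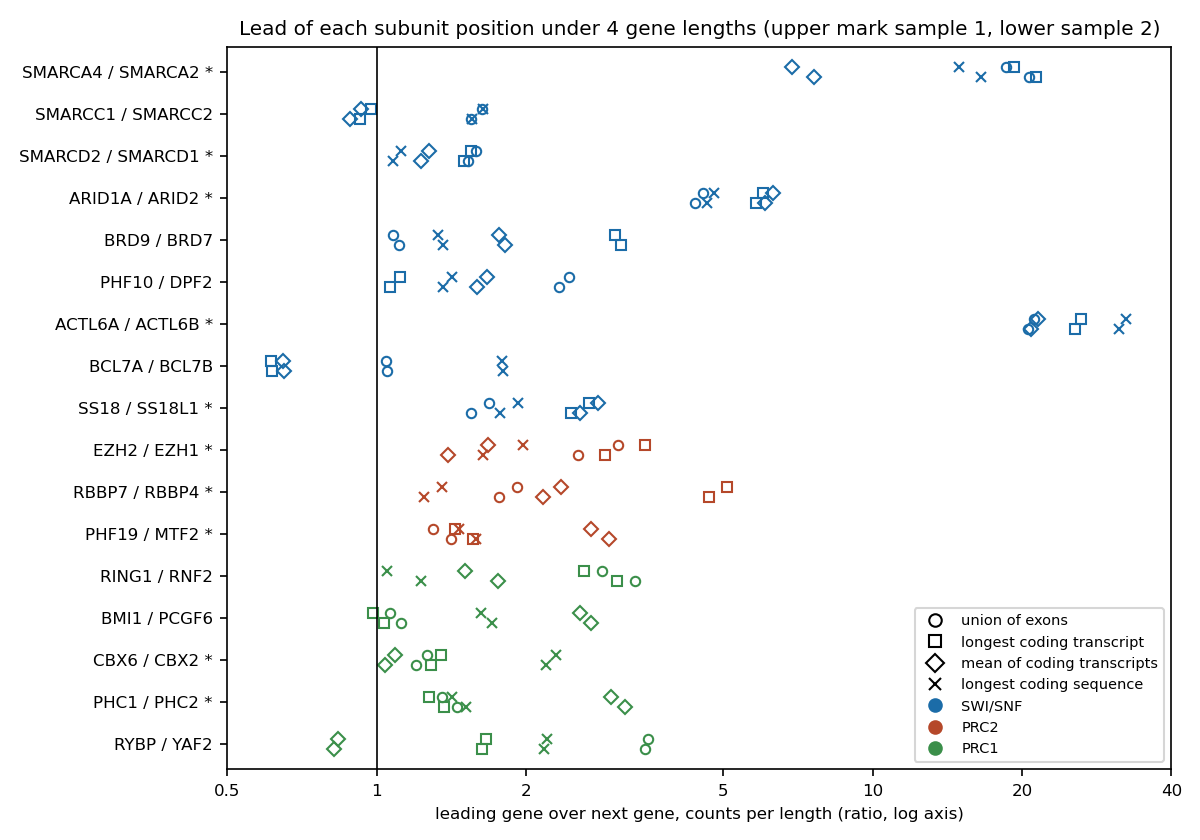
Ratio (log axis) of the leading gene to the next gene at the 17 positions with alternatives, under 4 gene lengths (marker shapes), with sample 1 drawn above sample 2; asterisks mark the 10 positions where the lead was called. SMARCA4 and ACTL6A stand furthest from 1, whereas marks for SMARCC1, BCL7A, BMI1 and RYBP fall on both sides of it, and the choice of length moves most ratios further than the change of sample does.

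SMARCE1 (BAF57), the other core subunit with no paralog, stood apart with 39 counts in sample 1 (3.76 CPM) and 103 in sample 2 (4.71 CPM). At 0.738 and 0.900 TPM it was the lowest of the 56 genes on the main scale. Its level cannot be read as that of its RNA without regard to the annotation. Of its coding bases, 70.5% are shared with same-strand exons of other genes. The gene with the largest exon overlap is AC073508.2, a protein-coding gene of GENCODE 29 that itself had 0 counts in both samples. The same held for BMI1 (PCGF4), all of whose coding bases (100%) lie in exons of COMMD3-BMI1, which also had 0 counts in both samples. The shares are smaller over all exon bases, which set the length on the main scale. There, 19.8% for SMARCE1 and 23.3% for BMI1 lie in same-strand exons of other genes. BMI1 nonetheless had 50.9 and 45.0 TPM. Over all protein-coding genes, 67.0% of the 1333 with 50% or more of their coding bases in exons of another gene were under 1 CPM, against 31.2% of the 17501 with none. These shares take every gene annotated as protein-coding, genes such as AC073508.2 and COMMD3-BMI1 included, and kinds of gene were not separated. The labels do not state how reads in shared exons were counted, and the part of such reads in the levels of SMARCE1 and BMI1 was not tested.

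**Figure D3:**
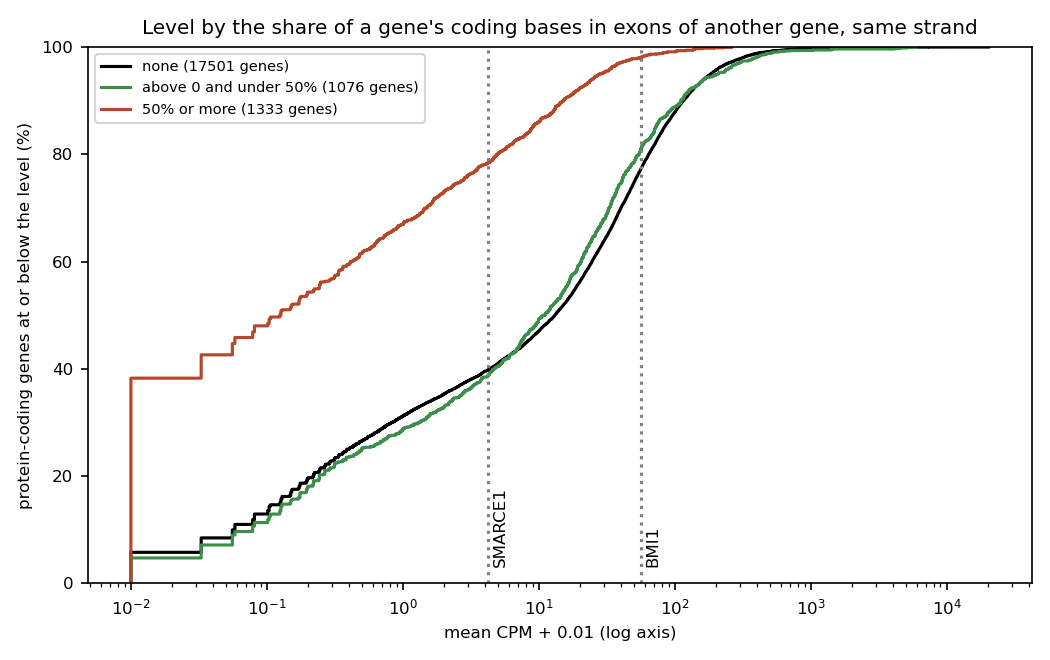
Cumulative share of protein-coding genes (%) at or below a mean level (CPM + 0.01, log axis) by the share of their coding bases that is shared with same-strand exons of other genes. The curve for 50% or more lies well above the others, which nearly coincide, and dotted lines mark SMARCE1 (4.24 CPM) and BMI1 (56.8 CPM), both of that class.

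In PRC2 the catalytic position was led by EZH2, the form of dividing cells, over EZH1. EZH2 had 88.7 TPM in sample 1 and 81.7 TPM in sample 2, and EZH1 had 28.9 and 32.1 TPM. EZH2 made up 75.4% and 71.8% of the pair on the main scale, shares that change with the length used. The ratio was 3.07 in sample 1 (2.77 to 3.40) and 2.54 in sample 2 (2.38 to 2.72), and it ran from 1.39 to 3.48 over the lengths. EZH1 therefore held a sizeable share, unlike SMARCA2 and ACTL6B.

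The promoters of this pair, chosen after its levels were seen, are shown because they differ in letters while their genes share a function. RefSeq windows (GRCh38.p14) were found for 50 of the 56 members, and for each the 250 bases before the start nearest to the GENCODE start of the gene were read. EZH2 has them at chr7:148884292-148884541 and EZH1 at chr17:42745041-42745290, both on the minus strand. Capitals mark the letters CCAAT, and TTTCCCGC, TTTCGCGC, TTTGCCGC or TTTGGCGC, which are forms of the E2F motif, on either strand. The motifs were chosen with the expression levels known.
EZH2: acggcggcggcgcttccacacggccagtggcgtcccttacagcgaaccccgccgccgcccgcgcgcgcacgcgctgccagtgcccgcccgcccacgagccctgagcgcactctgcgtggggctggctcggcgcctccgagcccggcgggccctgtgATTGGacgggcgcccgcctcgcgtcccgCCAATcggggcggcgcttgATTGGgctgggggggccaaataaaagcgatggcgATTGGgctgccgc
EZH1: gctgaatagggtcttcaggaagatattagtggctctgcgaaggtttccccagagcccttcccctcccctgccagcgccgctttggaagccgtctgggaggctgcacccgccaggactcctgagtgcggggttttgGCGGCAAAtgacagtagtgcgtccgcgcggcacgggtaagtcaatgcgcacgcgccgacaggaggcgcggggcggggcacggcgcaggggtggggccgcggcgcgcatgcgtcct
The EZH2 window holds CCAAT 4 times, as do 0.874% of all 35116 windows (4 or more), and none of the E2F-like forms. The EZH1 window holds no CCAAT and 1 E2F-like match. CCAAT occurs at least once in 42.0% of the members' windows and 32.0% of all windows, and an E2F-like form in 5 of the 50 members' windows and 2.79% of all. The median number of CpG dinucleotides was 28 in the members' windows and 11 in all. These sets are unlike: members have 1 window each, whereas all windows include further starts of the same genes and were not limited to expressed genes.

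The other core genes of PRC2 differed in level. SUZ12, which holds the complex together, had 56.8 and 55.4 TPM. Of its 50-base stretches, 92.3% were found in no other gene's transcript. Its pseudogene SUZ12P1 had 312 and 744 counts against 1052 and 2222 for SUZ12, and the part of shared reads in these was not tested. EED, which binds the H3K27me3 mark and activates the enzyme, was lower with 13.1 and 11.5 TPM, and with its longest coding transcript as length it reached 28.9 TPM on average against 60.7 TPM for SUZ12. The histone-binding subunit genes RBBP7 and RBBP4, which also serve other complexes, had 97.1 and 91.9 TPM and 50.8 and 52.2 TPM. RBBP7 led RBBP4 in every comparison (1.25 to 5.09 times).

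Accessory genes of both forms of PRC2 were expressed. PHF19 led the Polycomb-like genes, which recruit PRC2 to CpG islands, with 47.4 and 47.0 TPM. It exceeded MTF2 by 1.30 to 2.93 times and PHF1 by 1.62 to 3.27 times, whereas MTF2 and PHF1 were not ordered (0.813 to 2.23). JARID2 and AEBP2, which together define the other form, had 45.2 and 45.2 TPM and 41.9 and 36.2 TPM. Their order depended on the length (0.347 to 1.25).

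In PRC1, RING1 stood above RNF2 (RING1B) as the E3 ligase gene on the main scale, with 106 and 105 TPM against 37.2 and 31.5 TPM. The lead was not called, since the ratio of RING1 to RNF2 fell from 2.85 and 3.32 to 1.05 and 1.23 with the coding sequence as length. In unscaled counts the genes were closer, with 52.5 and 53.3 CPM for RING1 and 41.3 and 35.97 CPM for RNF2.

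All 6 PCGF genes, each of which defines a form of PRC1, were expressed. BMI1, PCGF6 and PCGF2 (MEL18) were the highest, with means of 48.0 ± 4.17, 44.1 ± 5.46 and 38.4 ± 0.382 TPM. PCGF1 had 24.99 ± 2.49, PCGF3 18.5 ± 0.0822 and PCGF5 15.9 ± 0.960 TPM. The ratio of BMI1 to PCGF6 ran from 0.984 to 2.71, so no lead was called. BMI1 exceeded PCGF1, PCGF2 and PCGF5 in every comparison, by at least 1.62, 1.16 and 1.20 times. The ratio of BMI1 to PCGF3 came down to 1.04. Of the 50-base stretches of PCGF6, 90.4% were found in no other gene's transcript, and the pseudogene that shares most of the rest, PCGF7P, had 4 counts in each sample.

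The CBX genes, whose chromodomains read H3K27me3, covered a wide range. CBX6 had 160.1 TPM in sample 1 and 141 TPM in sample 2, and CBX2 127 and 117 TPM. CBX8 had 32.2 and 27.01 TPM and CBX7 4.22 and 3.89 TPM. These 4 genes were ordered in every comparison, CBX6 above CBX2 (1.04 to 2.30), CBX2 above CBX8 (3.29 to 4.83) and CBX8 above CBX7 (2.498 to 7.65). CBX6 thus exceeded CBX7 by 37.05 ± 1.31 times on the main scale and by 14.9 times at the least. The call of CBX6 over CBX2 was narrow: the lowest bound of its intervals, which cover counting error only, was 1.0006.

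PHC1 led the polyhomeotic genes, whose products form polymers through a SAM domain, with 27.4 and 30.9 TPM. It exceeded PHC2 by 1.28 to 3.17 times and PHC3 by 1.54 to 4.41 times. Only 59.3% of its 50-base stretches were unique, and its pseudogene PHC1P1 had 43 and 140 counts against 473 and 1151 for PHC1, so the level of PHC1 is uncertain. RYBP and YAF2, which replace CBX subunits in variant PRC1, had 23.4 and 21.5 TPM and 6.62 and 6.19 TPM. Their order was not settled, as the ratio of RYBP to YAF2 ran from 0.821 to 3.53. BCOR, which joins the PCGF1 form, had 67.7 and 65.0 TPM, and KDM2B, which brings that form to CpG islands, 17.9 and 18.6 TPM.

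Summed over paralogs, places in one complex differed in their transcript level. In SWI/SNF the SMARCD genes summed to 337 ± 8.995 TPM, the SMARCC genes to 201 ± 2.31 TPM and the ATPases to 169.7 ± 1.05 TPM, against 30.4 ± 3.45 TPM for the actin-like genes. In PRC2 the RBBP genes summed to 146 ± 2.65 TPM and the EZH genes to 116 ± 2.67 TPM, against 12.3 ± 1.17 TPM for EED. With the longest coding transcript as length the ATPases summed to 343 ± 7.14 TPM and the actin-like genes to 43.2 ± 4.28 TPM. SMARCD genes remained the highest sum (401 ± 0.567 TPM) and SMARCE1 the lowest (1.83 ± 0.284 TPM) of the 24 places on both scales. The place of SMARCE1 carries the limit of shared exons given above.

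The samples differed little in these genes. An exact binomial test (2-sided, Benjamini-Hochberg adjustment over all genes tested) compared the counts of these libraries and not conditions. It covers counting error only, and the libraries differed by more than that, with a chi-square over its degrees of freedom of 4.68 over all genes tested. It was past an adjusted p of 0.05 for 3 of the 55 members tested, 1 higher and 2 lower in sample 2, against 8.71% of all 15530 genes tested (4.29% higher and 4.42% lower). The members' share of 5.45% is not above that of all genes. The median log2 ratio of sample 2 to sample 1 was -0.01 for the members and 0.01 for all genes. With the counts scaled to column totals the calls over all genes divided into 569 higher and 885 lower in place of 667 and 686, and with median-of-ratios factors into 839 and 537.

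The neuronal BAF gene DPF1 was lower in sample 2, with 35.95 CPM in sample 1 and 28.2 CPM in sample 2 (log2 ratio -0.34, adjusted p = 0.00703 by the exact binomial test). It was also the only member outside the central 95% of genes whose mean level was within 2-fold of its own (-0.28 to 0.32). CBX6 had 351 and 317 CPM (log2 ratio -0.15, adjusted p = 5.5e-05 by the exact binomial test). SMARCA4 was slightly higher in sample 2, at 690.0 and 719 CPM (log2 ratio 0.06, adjusted p = 0.0463 by the exact binomial test), and this call was lost with column totals (adjusted p = 0.180). Both CBX6 and SMARCA4 lay within the central 95% of genes at a like level. Among the members that did not pass, the log2 ratio reached 0.26 at most in size, for SMARCE1, and 11 of the 55 members had an unadjusted p under 0.05, against 21.2% of all genes tested.

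**Figure D4:**
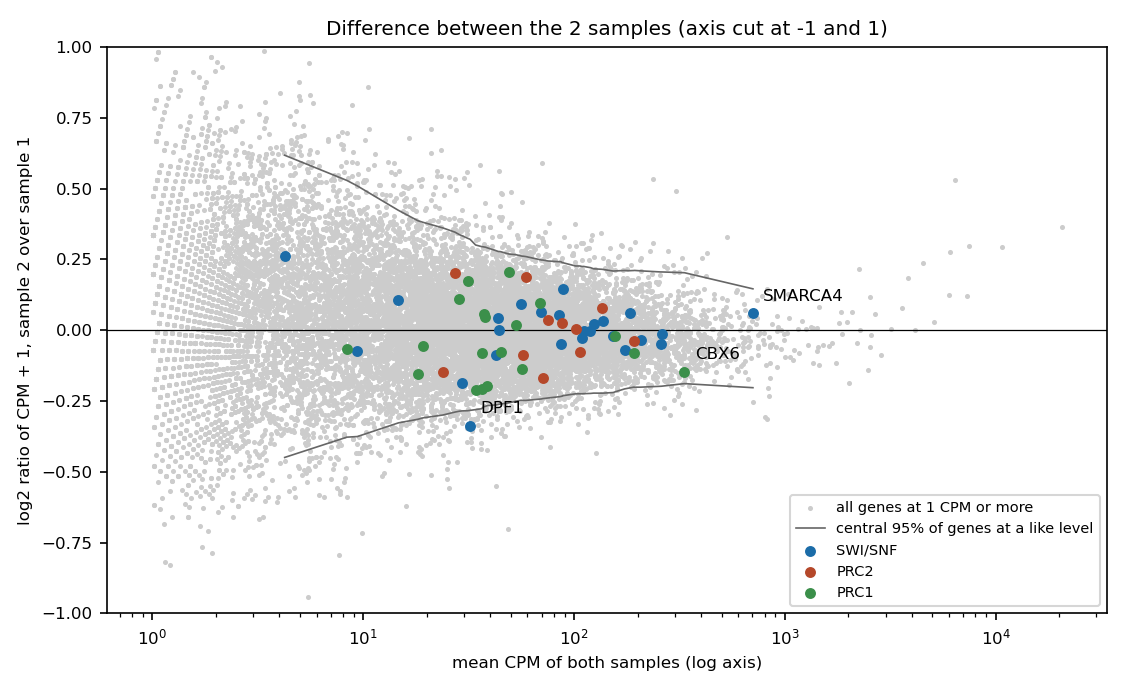
Log2 ratio of CPM + 1, sample 2 over sample 1, against the mean CPM (log axis) for all genes at 1 CPM or more (grey) and for the subunit genes (coloured by complex); lines give the central 95% of genes at a like level, genes beyond -1 or 1 are not drawn, and the 3 members past the binomial test are named. DPF1 is the only named point outside the lines.

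Other genes of the same pathways were also nearly all expressed. Of 68 such genes, 67 had at least 1 CPM (98.5%, against 66.5% of protein-coding genes), and 8 passed the test (11.9%, against 8.71% of all genes tested), 6 higher and 2 lower in sample 2. Genes within the middle range of the members' CPM passed it in 11.5% of cases. The highest and lowest genes below are by CPM, which is not scaled to length. All 11 genes listed for PR-DUB, a complex that removes the H2A mark set by PRC1, were expressed. The highest were HCFC1 (525 ± 15.1 CPM) and OGT (344 ± 30.8 CPM), and MBD5 was the lowest (12.0 ± 0.00937 CPM). OGT (322 and 366 CPM) and ASXL1 (194 and 217 CPM) passed the test, both higher in sample 2. Of the H3K27 demethylases, KDM6B had 183 and 201 CPM and passed the test, and KDM6A had 23.5 and 21.6 CPM and did not.

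Of the 4 PRC2 accessory genes, EPOP (101 ± 7.04 CPM) and LCOR (61.0 ± 2.74 CPM) were the highest. EZHIP, which encodes an inhibitor of EZH2, had 2 and 8 counts. Its level in sample 1 is under the floor of 3 counts (0.289 CPM). None of the 3 tested genes of this list passed the exact binomial test, and 1 had an unadjusted p under 0.05. Of the 22 PRC1 accessory genes, FBRSL1 (551 ± 13.5 CPM) and CBX3 (281 ± 14.4 CPM) had the highest CPM. In TPM the order was another, with TFDP1, chosen after its values were seen, at 254 TPM above CBX3 at 219 TPM and FBRSL1 at 212 TPM. CBX3 was lower in sample 2 (291 and 271 CPM) and DCAF7 higher (188 and 205 CPM), and both passed the test.

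Among the BAF genes outside the 56, the actins ACTG1 (3172 ± 8.42 CPM) and ACTB (2848 ± 123 CPM) were far the highest, and both also form the cytoskeleton. ACTB passed the test (2934 and 2761 CPM). BICRAL, a subunit of non-canonical BAF, was low at 7.78 ± 0.645 CPM, while its paralog BICRA had 63.3 ± 2.76 CPM. Of the 25 genes of other remodellers, CHD3 (369 ± 1.22 CPM) and BAZ2A (335 ± 12.7 CPM) were the highest and CHD1L (1.16 ± 0.688 CPM) the lowest. EP400 (197 and 218 CPM) and ATRX (101 and 118 CPM) passed the test, both higher in sample 2.

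Of these 68 genes, 3 have 50% or more of their coding bases in exons of other genes, as SMARCE1 and BMI1 do. CSNK2B, a casein kinase subunit of variant PRC1 and the lowest PRC1 accessory gene at 2.25 ± 0.183 CPM, has 80.9% of its coding bases in exons of other genes. The remodeller genes CHD4 (29.6 ± 1.72 CPM, 93.1%) and SRCAP (10.3 ± 1.22 CPM, 93.8%), chosen after their values were seen, are the others. The part of this overlap in their levels, and in the order of the remodeller genes by CPM, was not tested.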

How the data were processed

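Directional libraries were made from TRIzol-extracted total RNA of HEK293T cells with stable FKBP5 knockdown (1 group, 2 samples), per the labels' protocols. The authors deposited whole-number counts per Ensembl gene and CPM per sample. STAR 2.7.7a, edgeR and GRCh38 appear in the submitters' processing notes, without a counter, strand setting or annotation. Exons of opposite-strand genes cover 45.7% of the exon bases of PCGF2 and 42.4% of those of BRD7. The part of such reads in their levels was not tested. Within a library, deposited CPM and counts differ by 1 constant factor, and the ratio of the library sizes (2.11) was that of TMM factors computed here with edgeR 4.0.16 (R 4.3.3).

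Symbols were found for 99.5% of gene IDs. Lengths, exon overlap and 50-base stretches came from GENCODE 29 (GRCh38), which held 96.4% of the IDs. TPM use genes in it. Genes at a mean of 1 CPM or more were tested, and log2 ratios use CPM + 1. Tested on simulated counts of 15530 genes with Poisson error, the test recovered 69.0% of 1.5-fold and 85.0% of 2-fold changes, with 8 unchanged genes called. The simulated counts lack the further spread of the real libraries (chi-square over its degrees of freedom of 4.68). These figures therefore do not give the error rate of the test on the real counts. Python 3.11.15, pandas 2.3.3, numpy 2.4.6 and scipy 1.17.1 were used. All 56 members were named, and of each list the 2 highest, the lowest and those past the test. The members, lists and settings were chosen with earlier results of these data known. No molecular identifiers are mentioned in the labels. Intervals and floors (3 counts: 0.289 CPM in sample 1, 0.137 in sample 2) cover counting error only.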

Additional observations from a re-analysis of the deposited data

How the results depend on the processing

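The gene highest on the main scale was followed at each of the 17 positions, whether or not a lead was called. By the log2 ratio averaged over the samples, 15 stayed highest with the longest protein-coding transcript. BMI1 is among these, although its ratio to PCGF6 was 0.984 in sample 1 with that length. With the mean of the protein-coding transcripts 14 stayed highest. All 17 did with the longest coding sequence, with no length and with either sample alone. They also did with exon bases in no other gene (chosen after seeing the data). With the longest transcript the log2 ratio to the next gene turned to -0.072 for SMARCC1 and -0.70 for BCL7A. With the mean transcript it turned to -0.14 for SMARCC1, -0.63 for BCL7A and -0.27 for RYBP. Members at the CPM minimum numbered 55 or 56 under every setting tried, and those past the binomial test 2 to 4: EZH1 was added with median-of-ratios factors, AEBP2 replaced SMARCA4 with column totals, and SMARCA4 was lost with all 41325 genes tested (adjusted p = 0.120). DPF1 and CBX6 were past it under every setting. No paired analysis was possible because the samples form 1 group. With 2 samples and no control group analysed, no spread between conditions can be given.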
